A study of Mus musculus with 8 samples.

Results

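The Toll-like receptor genes of the mouse macrophage were followed through 8 RNA-seq samples of bone marrow-derived macrophages (BMDMs). They were the 10 genes Tlr1, Tlr2, Tlr3, Tlr4, Tlr5, Tlr6, Tlr7, Tlr8, Tlr9 and Tlr13, chosen by name from the 21080 gene symbols in the tables, and all 10 were found. The samples came from C57BL/6 mice of 2 genotypes. Nudt21-cKO mice (Nudt21 fl/fl LysM Cre) carry floxed alleles of Nudt21 and Cre recombinase driven by LysM, a gene of myeloid cells, and the WT mice were LysM Cre littermates of the same sex, so Cre was present in all groups. The 4 groups were WT at 0 h, cKO at 0 h, WT at 4 h and cKO at 4 h, with 2 samples each, numbered 1 and 2 in WT and 3 and 4 in cKO. The 0 h samples were untreated, and the 4 h samples received IFNγ overnight and then LPS for 4 h. Every sample was a pool of BMDMs from 2 mice, grown from bone marrow with M-CSF, and the age of the mice is not given in the sources used here. The sources used here do not say whether the 0 h and 4 h samples of 1 number were grown from the same mice, and the p-values below measure the spread between these pools.

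Toll-like receptors are membrane proteins that recognise microbial molecules through leucine-rich repeats and signal through a cytoplasmic TIR domain, which recruits the adaptors Myd88 or Ticam1 and leads to NF-kB and interferon regulatory factors. Tlr1, Tlr2, Tlr4, Tlr5 and Tlr6 act mainly at the plasma membrane. Tlr2 pairs with Tlr1 or Tlr6 to bind bacterial lipopeptides, Tlr4 binds LPS together with Ly96, and Tlr5 binds flagellin. Tlr3, Tlr7, Tlr8, Tlr9 and Tlr13 reside in endosomes and recognise nucleic acids: double-stranded RNA for Tlr3, single-stranded RNA for Tlr7 and Tlr8, CpG DNA for Tlr9 and bacterial ribosomal RNA for Tlr13. In these samples the 4 h groups had been given the ligand of Tlr4. Nudt21 is the subunit of cleavage factor Im that binds UGUA in RNA and takes part in the choice of the polyadenylation site.

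The values were mean read coverage per base of a gene, which sets genes of different length on 1 scale, and over all genes they summed to between 14950347 and 17954882 in the 8 samples. The number of reads behind a value is unknown, so no counting interval was computed. Nudt21 coverage was 718 and 641 in WT at 0 h, 158 and 172 in cKO at 0 h, 547 and 575 in WT at 4 h and 142 and 115 in cKO at 4 h, lower in every cKO sample. Nos2, an inducible gene of activated macrophages, was listed at 0 in the 4 samples at 0 h and lay between 19483 and 44731 at 4 h. Xist was listed at 0 and Ddx3y lay between 279 and 844 in the 8 samples, the pattern of male cells, which bears on Tlr7, Tlr8 and Tlr13 on the X chromosome. Adgre1 and Csf1r, defining macrophage genes, were high in every sample, with Csf1r between 13055 and 44260. The 8 macrophage markers summed to between 124575 and 134181 at 0 h and between 50877 and 65253 at 4 h. The 7 markers of neutrophils and their precursors summed to between 22468 and 34649 at 0 h and between 17504 and 24872 at 4 h, led by S100a8, S100a9 and Ngp, while Ly6g was at most 7.37. T cell markers summed to at most 3.86. The 5 markers of conventional dendritic cells summed to between 30.0 and 52.2 at 0 h and between 1034 and 1946 at 4 h, nearly all of the latter being Clec9a, and the 4 of plasmacytoid dendritic cells to between 2591 and 3470.4 at 0 h and between 8853 and 15901 at 4 h, led by Bst2. Clec9a was at most 7.71 at 0 h, and Flt3, another dendritic cell gene, at most 3.54 in any sample. The part of these cells in the changes of the receptors over time was not tested. In bulk samples, fewer cells of a type and less RNA per cell cannot be told apart.

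Between 0 h and 4 h the whole distribution of coverage changed shape, and this bears on every comparison over time. On the deposited scale the median of the log2 fold changes of all tested genes from 0 h to 4 h was -1.24 in WT and -1.03 in cKO. With all samples set to the same summed coverage it was still -1.19 and -1.07. The main comparison set the median log2 value of each sample equal (median-centring), which raises the 4 h values of all genes relative to 0 h. The result under equal summed coverage is therefore given beside it, and a change over time is described as a rise or fall under both scalings only where the gene was called in each. Calling a gene required that its fold change exceed 1.5 and its p be under 0.05, and the Benjamini-Hochberg adjusted p over all 16284 genes tested is given beside it. All 10 receptor genes passed the filter of a mean coverage of at least 0.5 over the 8 samples.

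Tlr7 was the most abundant receptor transcript in each of the 4 groups, and Tlr5 the least. In WT at 0 h the order was Tlr7, with a mean coverage of 4331 ± 394 (SD, n = 2), then Tlr8 at 3971 ± 516, Tlr13 at 1850 ± 240.5, Tlr2 at 876 ± 102, Tlr4 at 766 ± 63.7, Tlr1 at 625 ± 5.31, Tlr3 at 218 ± 0.506, Tlr9 at 95.1 ± 2.0, Tlr6 at 27.8 ± 9.88 and Tlr5 at 5.70 ± 1.59. The samples of Tlr7 and Tlr8 overlapped there, and so did those of Tlr2 and Tlr4. Tlr7, Tlr8 and Tlr13 together dominated the resting cells, and the 5 endosomal receptors held between 81.5% and 83.1% of the summed receptor coverage in the 4 samples at 0 h. At 4 h Tlr2 and then Tlr1 followed Tlr7 in both genotypes. The share of the 5 plasma membrane receptors, which needs no scaling between samples, was 18.5% and 17.6% in WT at 0 h and 17.1% and 16.9% in cKO at 0 h. It was 42.6% and 42.7% in WT at 4 h and 48.0% and 49.1% in cKO at 4 h, so that the groups separated at 4 h and the stimulated samples lay above all 4 unstimulated ones. The summed coverage of the 10 receptors was between 11847 and 14080 at 0 h and between 11049 and 12082 at 4 h.

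**Figure D1:**
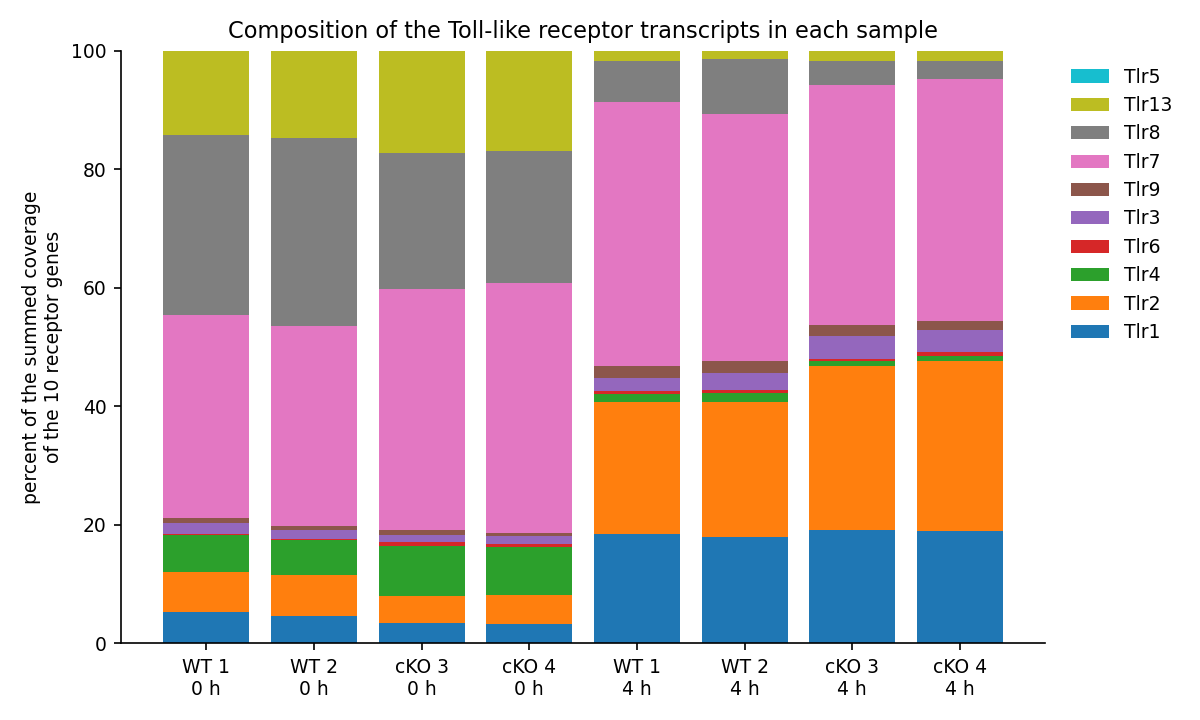
Percent of the summed coverage of the 10 receptor genes held by each gene, for each of the 8 samples (x axis: genotype, sample number and time). Tlr7 takes the widest band in each sample, Tlr8, Tlr13 and Tlr4 are narrower at 4 h than at 0 h, and Tlr1 and Tlr2 wider.

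On GRCm38, Tlr1 (chr5:64924679-64933563) and Tlr6 (chr5:64952031-64960097) are neighbours on the minus strand of chromosome 5. Tlr7 (chrX:167304929-167330558) and Tlr8 (chrX:167242696-167264329) are neighbours on the minus strand of chromosome X, and Tlr13 (chrX:106143204-106160493) lies on its plus strand. Tlr2 (chr3:83836272-83841767), Tlr3 (chr8:45395665-45411080), Tlr4 (chr4:66827584-66930284), Tlr5 (chr1:182954788-182976044) and Tlr9 (chr9:106222598-106226883) stand apart from one another, with Tlr2 and Tlr3 on the minus strand and Tlr4, Tlr5 and Tlr9 on the plus strand. Tlr1 and Tlr6 share 259 exact stretches of 100 bases, which is 8.85% of those of the Tlr1 transcript and 7.24% of those of Tlr6, so reads could have been split between them and their levels are uncertain. Tlr3 overlaps the antisense gene Gm45542 over 117 exonic bases, and without strand information the reads there cannot be told apart.

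The annotated 3'UTRs of the receptors are unlike in length and in UGUA, the letters that Nudt21 binds. Tlr4 has 1321 bases with 5 UGUA, Tlr3 has 1248 with 11, Tlr6 has 1111 with 4, Tlr13 has 859 with 4, Tlr7 has 407 with 1, Tlr9 has 273 with 2 and Tlr2 has 148 with 2. The 3'UTRs of Tlr1 (166 bases), Tlr5 (290.0 bases) and Tlr8 (58 bases) hold none. Over 13232 tested genes the median 3'UTR had 999 bases and 5 UGUA, and 13.2% had none. The site nearest the annotated end is shown for each receptor with a site, since UGUA is the motif of the deleted factor, as RNA from the GENCODE M21 transcript on GRCm38, 5′ to 3′, with UGUA in capitals.
Tlr2, 68 bases from the end: uaacauagaauUGUAuuauugaggau
Tlr3, 118 bases from the end: gaauaaauacuUGUAuugugcuaauu
Tlr4, 132 bases from the end: agagaaaauagUGUAcagagcagcuc
Tlr6, 111 bases from the end: gugugugugugUGUAuugguaaaagu
Tlr7, 41 bases from the end: ugauacugaacUGUAccagaguucaa
Tlr9, 12 bases from the end: uugucugucucUGUAucccuccc
Tlr13, 36 bases from the end: accuauguucuUGUAaguaaccccaa
A match is a description of the letters, and use of polyadenylation sites was not analysed here.

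Promoter windows from RefSeq (GRCm38.p6), 250 bases before to 50 after a start, were matched for 8 of the 10 receptors in 10 windows, and Tlr4 and Tlr7 had none. On either strand, the NF-kB consensus stood in the windows of Tlr2 and Tlr3, against 8.46% of 32851 promoters. The interferon response element GAAANNGAAA stood in Tlr6, as overlapping matches (3.44% of promoters), and the STAT element TTCNNNGAA in Tlr1, Tlr6 and Tlr8 (8.30%). The PU.1 letters GAGGAA stood in Tlr1, Tlr8, Tlr9 and Tlr13 (28.3%), and the AP-1 letters TGANTCA in Tlr9 (7.81%). These shares are of windows, and Tlr1 and Tlr6 have more than 1 window. Matches of Tlr8 and Tlr13, which fell over time, are not printed below, and the part of any match in the changes was not tested. A selection of the matches is shown, from receptors called higher after stimulation in at least 1 genotype under median-centring, written 5′ to 3′ on the strand of the gene with the match in capitals.
Tlr1, TTCNNNGAA, minus strand, chr5:64932909-64932936: gtagctagcTTCATCGAAgcagagatgc
Tlr2, NF-kB consensus, minus strand, chr3:83841763-83841790: aggacacctGGGGAATTCCcacacggag
Tlr2, NF-kB consensus, minus strand, chr3:83841598-83841625: cctgacctgGGGACATCCCcttccctca
Tlr3, NF-kB consensus, minus strand, chr8:45410573-45410600: gttgtttctGGGAGTTTCCtgcttttga
Tlr6, GAAANNGAAA on the opposite strand, chr5:64959258-64959285: tcttttctcTTTCACTTTCtgtttgatg
Tlr6, TTCNNNGAA, minus strand, chr5:64960033-64960060: acttattttTTCAGAGAAattcggagaa
Tlr9, TGANTCA, plus strand, chr9:106222530-106222557: aaatgatgtgTGACTCAttgtaccacct
The first Tlr2 match begins at position -173 from the start and overlaps a further one at -172.

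The first question was how each receptor responded to IFNγ and LPS in WT and in cKO macrophages. Under median-centring, 6 of the 10 receptors passed as higher and 3 as lower after stimulation of WT cells, against 34.7% of all tested genes higher and 22.2% lower, and 9 were called with an adjusted p under 0.05, against 54.6%. In cKO 5 were called higher and 3 lower, against 32.7% and 22.4%, and 8 with an adjusted p under 0.05, against 52.3%. Under equal summed coverage 4 were called higher and 4 lower in each genotype, against 12.3% of tested genes higher and 54.7% lower in WT and 13.2% and 52.7% in cKO. The share of all calls that were higher moved from 61.0% to 18.4% in WT and from 59.3% to 20.0% in cKO between the scalings. The median log2 fold change of the 10 receptors was 1.72 in WT and 0.87 in cKO under median-centring, where the median of all genes was 0.23 and 0.17. Under equal summed coverage it was 0.30 and -0.37, where the median of all genes was -1.19 and -1.07.

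Tlr1 and Tlr2, the lipopeptide receptors, rose in both genotypes under both scalings. Tlr1 coverage was 628 and 621 in WT at 0 h, 436 and 449 in cKO at 0 h, 2044 and 1984 in WT at 4 h and 2242 and 2282 in cKO at 4 h. All 4 stimulated samples lay above all 4 unstimulated ones. The log2 fold change of Tlr1 was 3.16 (SE 0.12) in WT and 3.56 (SE 0.12) in cKO, and 1.74 and 2.32 under equal summed coverage. For Tlr2 the coverage was 804 and 948 in WT at 0 h, 609 and 707 in cKO at 0 h, 2499 and 2519 in WT at 4 h and 3222 and 3479 in cKO at 4 h. The 4 h groups were again above the 0 h groups, and cKO above WT at 4 h on the deposited scale. Its log2 fold change was 2.99 (SE 0.14) in WT and 3.55 (SE 0.14) in cKO, and 1.57 and 2.31 under equal summed coverage, with adjusted p of 7.1e-05 and 4.7e-05 under median-centring.

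Tlr6, the other partner of Tlr2, had low coverage and rose under both scalings in WT, from 34.8 and 20.8 at 0 h to 66.5 and 60.7 at 4 h. In cKO it was 86.3 and 77.3 at 0 h and 52.0 and 68.4 at 4 h, so that the cKO samples started above the stimulated ones. The WT log2 fold change of Tlr6 was 2.70 (SE 0.31, adjusted p = 0.0012) and 1.29 under equal summed coverage. In cKO it was 0.75 (SE 0.31, adjusted p = 0.093), which was not called and turned to -0.49 under equal summed coverage.

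Tlr4, the receptor of LPS itself, fell in both genotypes under both scalings. Its coverage was 721 and 811 in WT at 0 h, 1082 and 1135 in cKO at 0 h, 136 and 154 in WT at 4 h and 100.1 and 105 in cKO at 4 h. The order of the genotypes was opposite at the 2 times and the samples of WT and cKO did not overlap at either. The log2 fold change of Tlr4 was -0.93 (SE 0.11, adjusted p = 0.0011) in WT and -2.24 (SE 0.11, adjusted p = 7.0e-05) in cKO. Under equal summed coverage Tlr4 was 5.10-fold lower in WT and 11.1-fold lower in cKO at 4 h than at 0 h.

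Tlr5, the flagellin receptor, was near the lower limit of these data. At 0 h WT had coverage of 6.82 and 4.57, and cKO had 9.68 and 12.8. At 4 h it was listed at 0 in WT 1 and cKO 3 and had 0.236 in WT 2 and 1.81 in cKO 4, below every 0 h sample. Under median-centring Tlr5 was not called in WT (adjusted p = 0.091) or cKO (adjusted p = 0.093), and under equal summed coverage it was called lower in each (adjusted p = 0.027 and 0.034).

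Among the endosomal receptors, Tlr3 and Tlr9 were higher at 4 h and Tlr8 and Tlr13 lower. Tlr3 coverage was 218 and 217 in WT at 0 h, 164 and 177 in cKO at 0 h, 248 and 315 in WT at 4 h and 454 and 459.8 in cKO at 4 h. The cKO samples spanned the wider range, below WT at 0 h and above WT at 4 h. The log2 fold change of Tlr3 was 1.83 (SE 0.09) in WT and 2.63 (SE 0.09) in cKO under median-centring, and 0.41 (not called, adjusted p = 0.056) and 1.39 (called) under equal summed coverage. WT samples had a Tlr9 coverage of 96.5 and 93.7 at 0 h and of 225 and 228 at 4 h, and cKO samples one of 108 and 67.5 at 0 h and of 212 and 182 at 4 h. Tlr9 rose under both scalings, by 6.58-fold in WT and 5.28-fold in cKO under median-centring and by 2.47-fold and 2.23-fold under equal summed coverage. B cells also express Tlr9, and Cd79b, a gene of B cells, had a coverage of 142 and 123 in WT at 0 h, 69.1 and 66.3 in cKO at 0 h and between 1.70 and 10.5 in the 4 samples at 4 h. Plasmacytoid dendritic cells express Tlr9 too, and of their 4 markers Siglech was at most 9.39, Ly6d at most 8.53 and Ccr9 at most 43.4, while Bst2 lay between 2566 and 3468 at 0 h and between 8810 and 15857 at 4 h. The part of these cells in the Tlr9 values was not tested.

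Tlr8 coverage was 3606 and 4336 in WT at 0 h, 2985 and 3146 in cKO at 0 h, 766 and 1025 in WT at 4 h and 469 and 354 in cKO at 4 h. The cKO samples were below the WT samples at each time, and every stimulated sample was below every unstimulated one. Tlr8 fell under both scalings, with a log2 fold change of -0.69 (SE 0.18, adjusted p = 0.020) in WT and -1.71 (SE 0.18, adjusted p = 8.7e-04) in cKO, and -2.11 and -2.95 under equal summed coverage. The WT call under median-centring was lost without WT 2 at 0 h (-0.56, adjusted p = 0.088) and without WT 1 at 4 h (-0.59, adjusted p = 0.092). Tlr13 had coverage of 1679.8 and 2019.85 in WT at 0 h, 2239 and 2366 in cKO at 0 h, 201 and 157 in WT at 4 h and 202 and 215 in cKO at 4 h. Tlr13 fell under both scalings, with a log2 fold change of -1.91 (SE 0.22) in WT and -2.26 (SE 0.22) in cKO, and -3.32 and -3.50 under equal summed coverage.

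Tlr7 had coverage of 4052 and 4609.7 in WT at 0 h, 5269 and 5944 in cKO at 0 h, 4956 and 4605 in WT at 4 h and 4743 and 4936 in cKO at 4 h. These samples span a narrow range, and in WT the 2 times overlap. The log2 fold change was 1.61 (SE 0.15) in WT and 0.99 (SE 0.15) in cKO under median-centring, and under equal summed coverage it was not called in either and turned its sign in cKO (0.19 and -0.25). No direction of Tlr7 over time is therefore given.

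**Figure D2:**
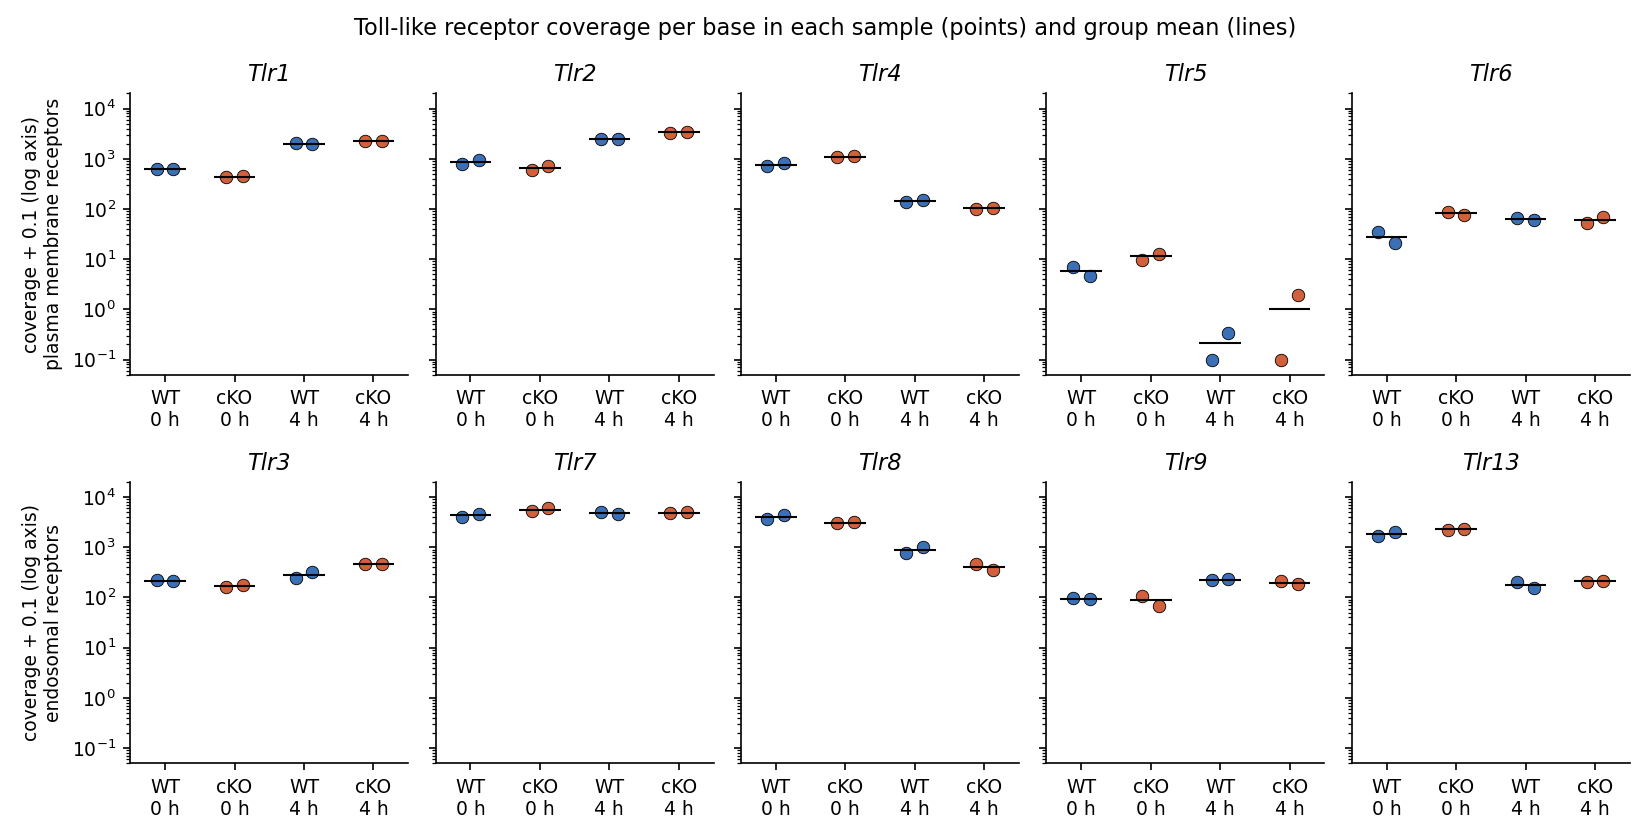
Coverage + 0.1 on a log axis for each receptor in the 2 samples of each group (points) with the group mean (line), WT in blue and cKO in orange. Tlr4, Tlr8 and Tlr13 are lower in all stimulated samples than in all unstimulated ones, Tlr1 and Tlr2 higher, and Tlr7 lies between 4052 and 5944 throughout.

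**Figure D3:**
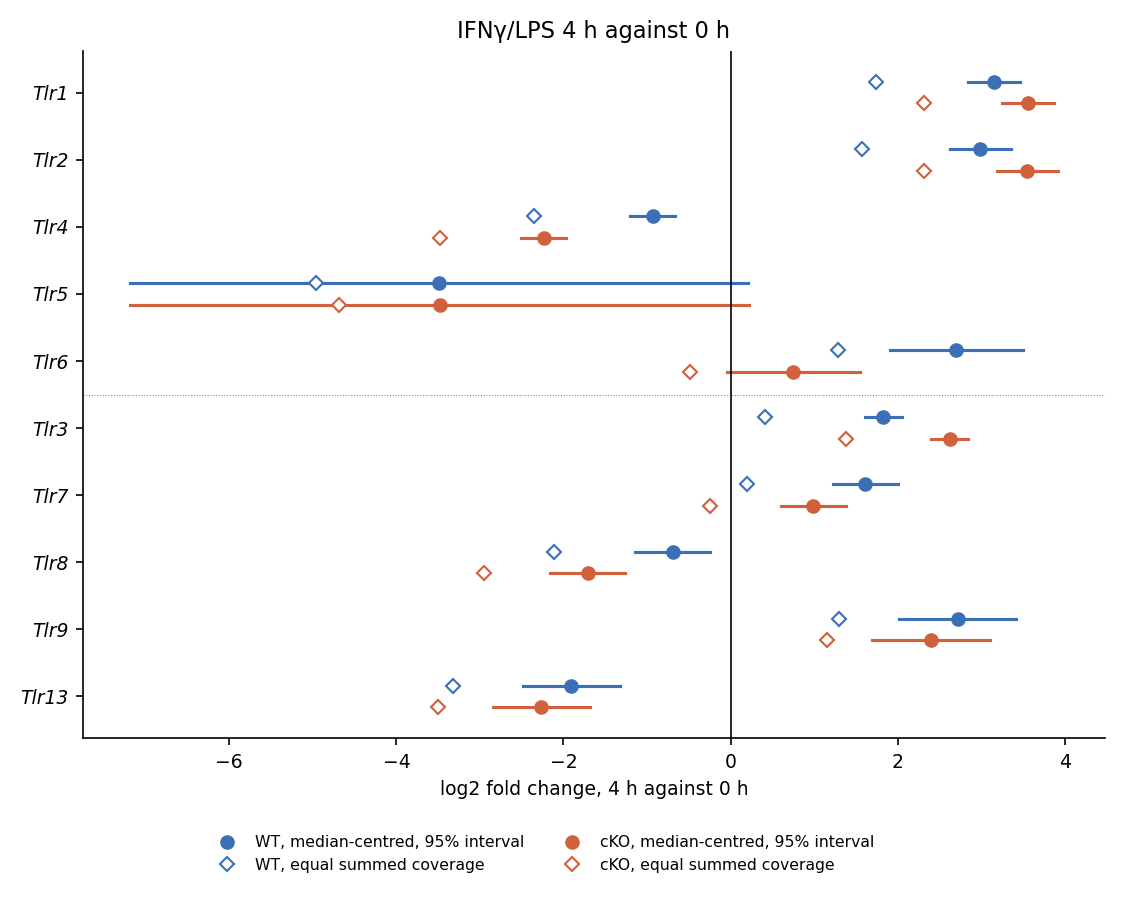
Log2 fold change from 0 h to 4 h in WT (blue) and cKO (orange) for each receptor, with the 95% confidence interval under median-centring (filled) and the value under equal summed coverage (open diamonds). Open diamonds lie to the left of filled points for every receptor, and Tlr6 and Tlr7 in cKO change sign between them.

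The second question was what loss of Nudt21 did to the receptors in resting cells. At 0 h Tlr6 was higher and Tlr1 lower in cKO, so 1 receptor was called in each direction, against 6.39% of tested genes higher and 6.21% lower. Tlr6 was 2.83-fold higher in cKO (log2 fold change 1.502, SE 0.31, adjusted p = 0.067), and its genotypes did not overlap. Tlr1 was 1.51-fold lower (log2 fold change -0.59, SE 0.12, adjusted p = 0.066), with each cKO sample under each WT sample. By limma under median-centring, 0 of the 10 had both a fold change above 1.5 and an adjusted p under 0.05, against 4.76% of tested genes, and 6 had an unadjusted p under 0.05 at any fold, against 21.9%. Under equal summed coverage Tlr6 (1.47, adjusted p = 0.061) and Tlr1 (-0.62, adjusted p = 0.029) were called, against 5.9% of tested genes higher and 6.42% lower. Both also had an adjusted p under 0.05 with quantile normalization, with a filter at a mean of 5 and with an intensity trend. The call of Tlr1 sat at the edge of the fold threshold, and was lost without cKO 4 at 0 h (log2 fold change -0.56, adjusted p = 0.27), on the deposited scale (-0.50) and with no filter on low values (-0.58).

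The other 8 receptors were not called at 0 h in the main comparison. Tlr2 was called lower with quantile normalization (log2 fold change -0.66), and Tlr5 higher with only the 4 samples of the comparison (0.89). Without WT 1 at 0 h Tlr2 gave -0.64 and Tlr8 -0.61, and without cKO 3 at 0 h Tlr9 gave -0.64. For Tlr4 the genotype log2 fold change was 0.44 (95% confidence interval 0.17 to 0.71), for Tlr7 it was 0.28 (-0.11 to 0.67) and for Tlr13 0.23 (-0.35 to 0.80). For Tlr2 it was -0.51 (-0.88 to -0.14), for Tlr3 -0.45 (-0.67 to -0.23), for Tlr8 -0.46 (-0.91 to -0.01) and for Tlr9 -0.25 (-0.95 to 0.45). Tlr5 gave 0.89 (-2.81 to 4.59), an interval too wide to read. Of the 3 X-linked receptors, Tlr7 and Tlr13 thus had higher means in cKO and Tlr8 a lower one, without a call. The ratio of Tlr7 to Tlr8 within a sample was 1.12 and 1.06 in WT, where cKO had 1.77 and 1.89. The ratio of Tlr1 to Tlr6 was 18.1 and 29.8 in WT, where cKO had 5.06 and 5.80. Neither ratio overlapped between the genotypes, although with 2 samples against 2 an exact permutation test cannot give a two-sided p below 0.333. Among the macrophage markers at 0 h, Csf1r was 38697 and 44260 in WT, where cKO had 26255 and 30290.2, whereas Cd68 was 45504 and 42908 in WT, where cKO had 69414 and 73398, and the sums of the 8 markers overlapped. Without Cd68, left out after its values were seen, the other 7 summed to 79071 and 89872 in WT and lower in cKO, at 56011 and 60784. The neutrophil markers summed to 22468 and 24380 in WT, where cKO had 26051 and 34649. The part of such differences between the pools in the receptor values was not tested.

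At 4 h the receptors that differed between the genotypes were Tlr4 and Tlr8, both lower in cKO. They were 2 of 10 called lower, against 10.6% of tested genes, and 0 were called higher, against 9.88%, although Tlr3 was higher at an unadjusted p under 0.05 in limma, the 1 receptor in that direction, against 14.7% of tested genes. With an adjusted p under 0.05 the same 2 were called, against 12.9%. Of all calls at 4 h 48.2% were higher under median-centring and 64.4% under equal summed coverage. Tlr8 was 2.79-fold lower in cKO than in WT (log2 fold change -1.48, SE 0.18, adjusted p = 0.012) and 2.52-fold lower under equal summed coverage. Tlr4 was 1.82-fold lower (log2 fold change -0.86, SE 0.11, adjusted p = 0.012) and 1.64-fold lower under equal summed coverage, while on the deposited scale its log2 fold change of -0.50 fell short of the fold threshold. Leaving out 1 library at a time kept both calls, but the adjusted p of Tlr4 rose to 0.060 without cKO 3 at 4 h and 0.066 without cKO 4 at 4 h, and that of Tlr8 to 0.058 without cKO 4 at 4 h. At 4 h the macrophage markers summed to 50877 and 55634 in WT, where cKO had 62229 and 65253, and Cd68 alone was 12362 and 13101 in WT, where cKO had 24827 and 28817. Without Cd68 the other 7 summed to 38515 and 42533 in WT and lower in cKO, at 37402 and 36436, and Adgre1 was 12400.3 and 13299.5 in WT, where cKO had 9642 and 8983. The neutrophil markers summed to 17504 and 21568 in WT and higher in cKO, at 21850.4 and 24872. The sums for conventional dendritic cells were 1225 and 1946 in WT and lower in cKO, at 1071 and 1034, and those for plasmacytoid dendritic cells 9954 and 8853 in WT and higher in cKO, at 14313 and 15901. The part of these differences in the Tlr4 and Tlr8 values was not tested. Over all alternatives the adjusted p ranged from 0.0014 to 0.076 for Tlr4 and from 9.1e-04 to 0.082 for Tlr8.

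For Tlr3 at 4 h the log2 fold change was 0.35 (95% confidence interval 0.13 to 0.57), and 0.71 on the deposited scale, where it was called. Tlr2 gave 0.06 (-0.31 to 0.43), Tlr1 -0.19 (-0.50 to 0.12), Tlr7 -0.34 (-0.73 to 0.05), Tlr6 -0.45 (-1.25 to 0.35), Tlr9 -0.57 (-1.27 to 0.14) and Tlr13 -0.13 (-0.71 to 0.45). Tlr5 gave 0.90 (-2.81 to 4.60) and was called higher only without cKO 3 at 4 h (3.04), the cKO library where it was listed at 0. Signs in this group depend on the scale: Tlr1, Tlr7 and Tlr13 turn positive on the deposited scale and Tlr13 also under equal summed coverage. The deposited coverage of Tlr2 was 2509 ± 14.3 (SD, n = 2) in WT and 3350.2 ± 182 in cKO at 4 h, a separation that median-centring removes. Over all tested genes the median log2 fold change between the genotypes at 4 h was 0.28 on the deposited scale. The sample medians that median-centring sets equal were 5.64 and 5.88 in WT and 6.14 and 6.10 in cKO on that log2 scale.

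**Figure D4:**
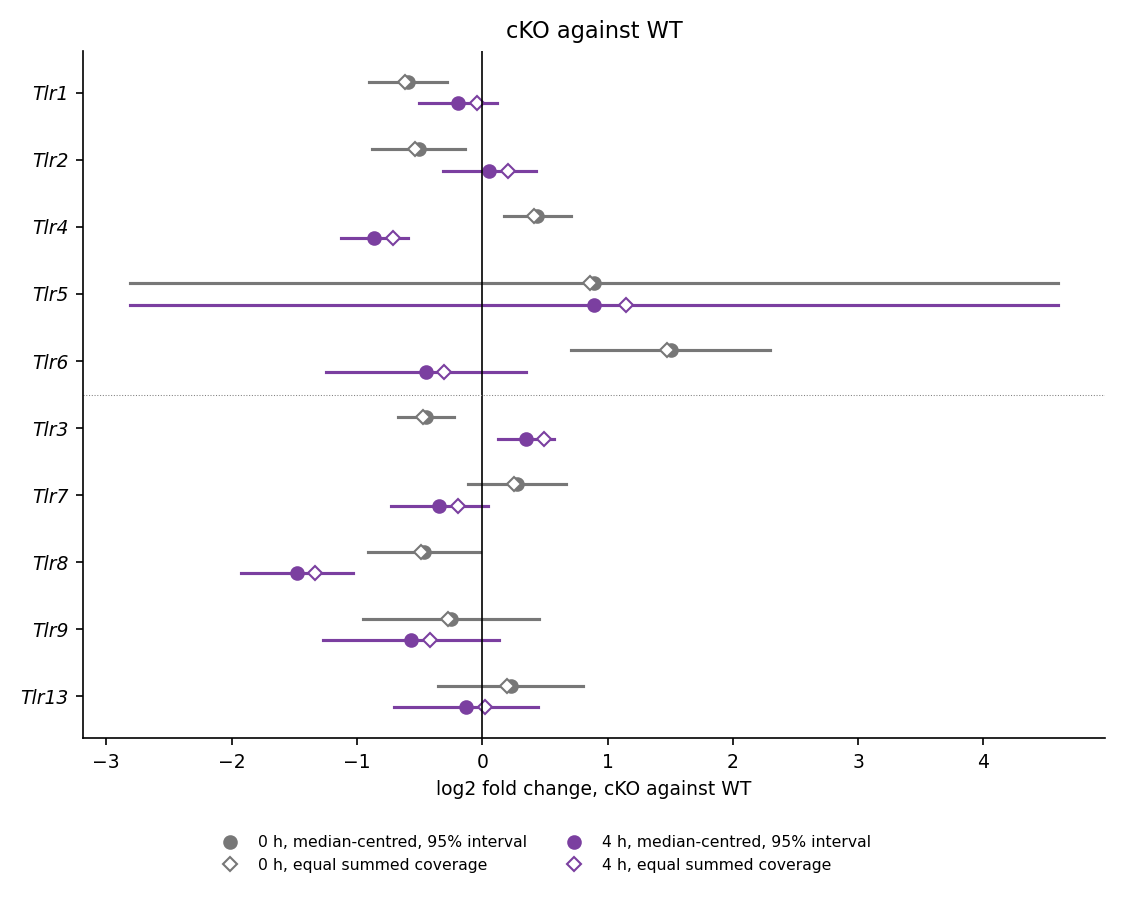
Log2 fold change of cKO against WT for each receptor at 0 h (grey) and 4 h (purple), with the 95% confidence interval under median-centring (filled) and the value under equal summed coverage (open diamonds). The 4 h intervals of Tlr4 and Tlr8 lie wholly below 0, and for Tlr4 the 0 h interval lies wholly above it.

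The third question was whether the genotype effect itself differed between the times. This interaction, the log2 genotype effect at 4 h minus that at 0 h, was called for 1 receptor in the positive direction and 4 in the negative, against 7.47% and 8.85% of tested genes. With an adjusted p under 0.05 it was called for Tlr4 alone, against 2.12%. Among all calls of the interaction 45.8% were positive under median-centring and 69.2% under equal summed coverage. For Tlr4 the interaction was -1.30 (SE 0.15, adjusted p = 0.027), and -1.13 under equal summed coverage (adjusted p = 0.048), with cKO above WT at 0 h in both samples and below it at 4 h in both. The adjusted p ranged from 0.040 to 0.10 when 1 library was left out, and from 0.0077 to 0.20 over all alternatives, the highest being that of the fit with the replicate number as a block, which ended the adjusted call.

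The other called interactions had larger adjusted p. They were Tlr3 at 0.80 (adjusted p = 0.053), Tlr6 at -1.95 (adjusted p = 0.10), Tlr8 at -1.02 (adjusted p = 0.11) and Tlr7 at -0.62 (adjusted p = 0.19). With the replicate number as a block, 1 of the negative interaction calls was lost. Those of Tlr3 and Tlr6 were called under equal summed coverage too (0.97 and -1.78), while those of Tlr7 and Tlr8 were not (-0.44 and -0.84). The Tlr7 call was also lost without any 1 of 6 libraries: WT 1 at 0 h (-0.51), cKO 3 at 0 h (-0.65), cKO 4 at 0 h (-0.58), WT 1 at 4 h (-0.45), cKO 3 at 4 h (-0.58) or cKO 4 at 4 h (-0.66). For Tlr2 the interaction of 0.56 (95% confidence interval 0.04 to 1.08) was not called, and without WT 1 at 0 h (0.70) or WT 1 at 4 h (0.68) it was, as it was under equal summed coverage (0.74) and on the deposited scale (0.83). Tlr1 gave 0.40 (-0.04 to 0.84), and was called on the deposited scale (0.67) and with quantile normalization (0.68). Tlr9 gave -0.32 (-1.31 to 0.67), and was called without cKO 4 at 0 h (-0.70). Tlr13 gave -0.36 (-1.17 to 0.46), and was called without WT 2 at 4 h (-0.66).

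Ratios within a sample describe the same pattern without any scaling between samples. The ratio of Tlr2 to Tlr4, the lipopeptide over the LPS receptor, was 1.11 and 1.17 in unstimulated WT, where cKO had 0.563 and 0.623. At 4 h it was 18.3 and 16.4 in WT, where cKO had 32.2 and 33.3, so cKO had the lower ratio at rest and the higher ratio after stimulation. The ratio of Tlr7 to Tlr8 at 4 h was 6.47 and 4.49 in WT and higher in cKO, at 10.1 and 14.0, as at 0 h. For Tlr1 to Tlr6 it was 30.7 and 32.7 in stimulated WT, where cKO had 43.1 and 33.3, and the low ratio of cKO at 0 h was no longer seen. By contrast the ratio of Tlr2 to Tlr1 stayed between 1.22 and 1.58 in all 8 samples. Within that range it separated the genotypes at 4 h, at 1.22 and 1.27 in WT and 1.44 and 1.52 in cKO. The ratio of Tlr7 to Tlr13 lay between 2.28 and 2.51 in the 4 samples at 0 h and between 22.9 and 29.3 in the 4 samples at 4 h.

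Tlr11 and Tlr12, mouse receptors of profilin, were not among the 10 but belong to the same family. Tlr12 went from between 0.850 and 2.31 at 0 h to between 248 and 339 at 4 h, and Tlr11 from between 0.649 and 2.69 to between 7.28 and 18.6. Both were called higher in each genotype under both scalings, and neither was called between genotypes at 4 h. At 0 h Tlr12 was called higher in cKO (log2 fold change 0.70, adjusted p = 0.22), though not under equal summed coverage (0.68).

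The genes that act with the receptors were counted in 5 lists, for ligand capture, for trafficking, for adaptors and kinases, for transcription factors and for inhibitors, 57 genes of which 56 were tested. At 0 h 3 of them were called higher and 3 lower in cKO, against 6.39% and 6.21% of all tested genes. At 4 h 2 were called higher and 9 lower, against 9.88% and 10.6%, or 4 and 5 under equal summed coverage, against 13.1% and 7.26%. Of the 6 tested ligand capture genes, Ly86, the partner of Cd180, was called lower in cKO at 0 h (log2 fold change -1.02, adjusted p = 0.021) and at 4 h (-1.79, adjusted p = 0.0040), and Lbp, which binds LPS, at 0 h (-0.95, adjusted p = 0.030). Neither Cd14 nor Ly96, the partners of Tlr4, was called between genotypes at either time. At 4 h Cd14 was at -0.59 (SE 0.33, adjusted p = 0.28). Ly96 was at -0.57 (SE 0.16, adjusted p = 0.069), just short of the fold threshold. The interaction of Ly96 was called (-0.64, adjusted p = 0.20), though not under equal summed coverage (-0.46). In the list of 12 for folding, trafficking and processing, Unc93b1, which carries the nucleic acid receptors to endosomes, was called lower at 0 h (-0.80, adjusted p = 0.036). Hsp90b1, the chaperone of most of these receptors, was called lower at 4 h (-1.01, adjusted p = 0.0083), as was Lgmn, a protease that cleaves endosomal receptors (-1.21, adjusted p = 0.0053). The call of Cnpy4 at 4 h (-0.64, adjusted p = 0.073) was lost under equal summed coverage. Ctsk, a cathepsin, was higher at 0 h (1.63, adjusted p = 0.015) and 4 h (3.25, adjusted p = 0.0024).

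Among 19 adaptors and proximal kinases, 2 were called higher and 0 lower in cKO at 0 h, against 6.39% and 6.21% of all tested genes. The 2 were Traf3 (1.32, adjusted p = 0.021) and Ikbkg (0.68, adjusted p = 0.050). At 4 h 1 was called higher, Ikbkg (1.12, adjusted p = 0.010), and 4 lower, against 9.88% and 10.6% of all tested genes. Tab1 (-1.21, adjusted p = 0.042) and Ticam2, the adaptor that links Tlr4 to Ticam1 (-1.04, adjusted p = 0.035), were called under both scalings. Ticam1 (-0.63, adjusted p = 0.10), the adaptor of Tlr3, and Chuk (-0.63, adjusted p = 0.014) were not called under equal summed coverage. Against the same shares of all tested genes, none of 7 downstream transcription factors was called at either time under median-centring. Of 12 inhibitors the 1 called was Pik3ap1, lower at 4 h (-0.61, adjusted p = 0.050), which was not called under equal summed coverage. Under that scaling Pik3ap1 was instead called lower at 0 h (-0.59), and Irf7 (0.70) and Traf3 (0.62) called higher at 4 h.

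**Figure D5:**
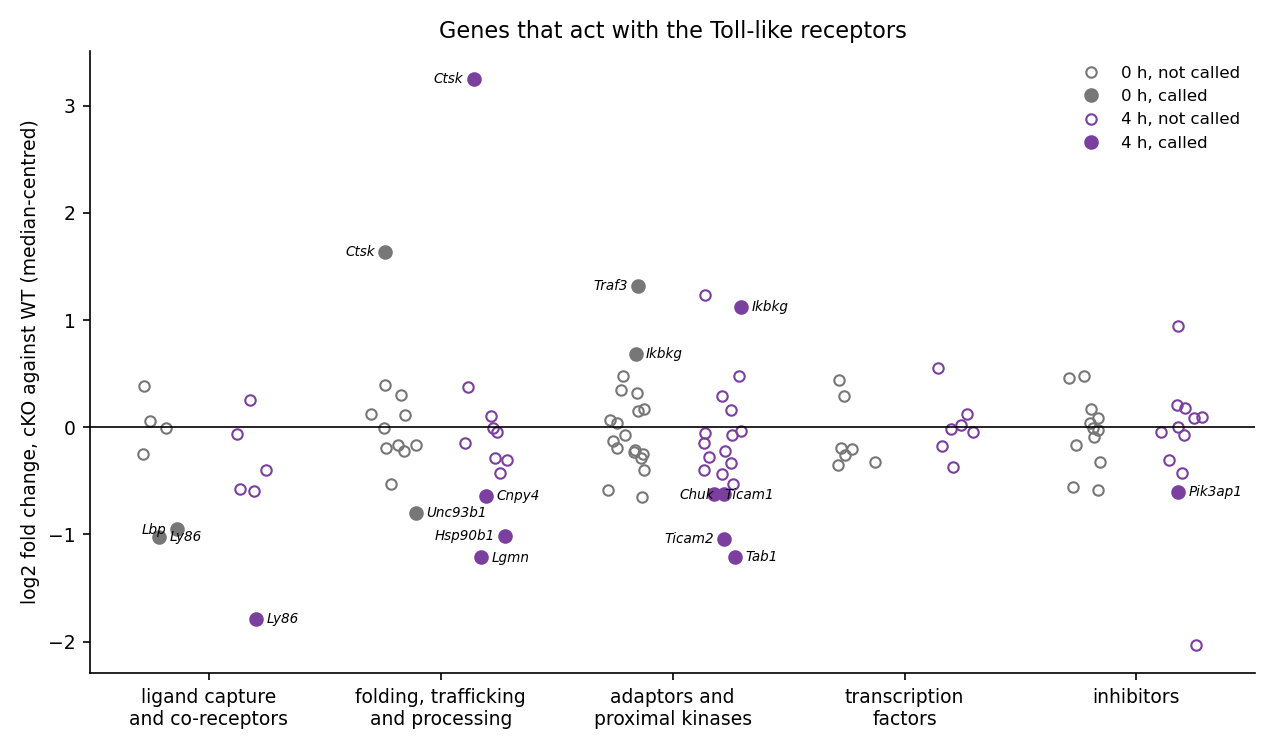
Log2 fold change of cKO against WT under median-centring for 56 genes in 5 lists (x axis), at 0 h in grey and 4 h in purple, with called genes filled and named. Ctsk stands highest at both times, Ly86 is the lowest called gene at 4 h, and open points farther out were not called.

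With stimulation 38 of the 56 were called higher and 7 lower in WT, and 32 and 7 in cKO, where 34.7% and 22.2% of all tested genes were called in WT and 32.7% and 22.4% in cKO. Under equal summed coverage the counts were 19 and 17 in WT and 21 and 22 in cKO, where 12.3% and 54.7% of all tested genes were called in WT and 13.2% and 52.7% in cKO. The inhibitors were called higher for 9 of 12 in each genotype under median-centring and for 6 of 12 under equal summed coverage, against the shares of higher genes just given, led by Tnfaip3 (log2 fold change 6.84 in WT and 6.89 in cKO) and Nfkbia (5.64 and 5.70). The transcription factors were called higher for 6 of 7 in each genotype, led by Irf7 (6.62 and 7.495) and Irf8 (4.49 and 4.32), with 5 in WT and 6 in cKO under equal summed coverage. Of 19 adaptors and kinases 14 were called higher and 3 lower in WT, and 9 and 2 in cKO. Under equal summed coverage these counts were 5 and 6 in WT and 5 and 10 in cKO. Of 12 trafficking genes 5 were called higher and 3 lower in WT, and 5 and 5 in cKO. Under equal summed coverage these were 0 and 7 in WT and 1 and 7 in cKO. The shares of all tested genes given above apply to each list. Of 6 tested ligand capture genes 4 were called higher and 1 lower in WT, and 3 and 0 in cKO. Under equal summed coverage these were 3 and 2 in WT and 3 and 3 in cKO. Cd14, which hands LPS to Tlr4, rose by 3.80 in WT and 3.45 in cKO on the log2 scale, and by 2.38 and 2.21 under equal summed coverage, while Tlr4 fell. Myd88, the adaptor of most of the receptors, rose by 3.53 and 3.44, and by 2.11 and 2.197 under equal summed coverage. Tab1 was called lower in each genotype under both scalings, at -2.16 in WT and -2.77 in cKO under median-centring. Sarm1 was called lower in WT (-4.22, SE 1.06) and not in cKO (-2.34, SE 1.06) under median-centring, and in each genotype under equal summed coverage.

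For each receptor the genes with the most similar profile were found by the distance between log2 profiles over the 8 samples, each centred on its own mean, as a description. Tlr7 and Tlr1 had the closest neighbours, Cul3 at 0.16 and Ext1 at 0.17, on a scale where 0 is the same profile. Those closest to Tlr4 were C3ar1 (0.24), Ift74 (0.41) and Mdm1 (0.43). Tlr2 was nearest to Aoah, which inactivates LPS (0.26), and it shared St3gal1 among its 3 nearest with Tlr1. Tlr13 was nearest to Tmem218 (0.34), Tlr3 to Tnfrsf1b (0.42), Tlr9 to Gm15601 (0.47) and Tlr8 to Nfatc2 (0.50). Tlr6 had no gene closer than 0.78 and Tlr5 none closer than 1.82, and both have low coverage.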

How the data were processed

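RNA-seq of 8 BMDM samples was analysed, grouped by GEO's titles, because other labels give the stimulation for the 0 h samples as well. Per the submitters' processing notes and the methods, the authors aligned reads to GRCm38 (mm10) with HISAT2 2.2.1 and quantified RefSeq genes with StringTie 2.1.7. The deposited values are a coverage signal for each gene, in 1 table per time. The headers do not name the unit, which was read from the values, and no scaling between samples was found. The authors' own fold changes, p-values and classes in these tables were not used, and 0 columns of sample values were left unused. The library kit does not mark strand.

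Log2(coverage + 0.1), median-centred, was fitted with limma 3.58.1 in R 4.3.3 on the 4 group means of all 8 samples, over 16284 genes with a mean of at least 0.5. Calls need a fold change above 1.5 and p under 0.05, and Benjamini-Hochberg adjustment ran over all genes. The scripts were tested on simulated data. Alternatives covered scaling, pseudocount, filter, variance, the samples fitted, the replicate number as a block, and leaving out each library. All 10 receptors are named, with at most 4 called genes per list by size of change, Chuk, Cd14 and Ly96 being named beyond it, and the 3 nearest profiles. The receptors and lists were chosen with earlier results of these data known. Positions and 3'UTRs came from GENCODE M21.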

Additional observations from a re-analysis of the deposited data

Results flagged for a closer look

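The Tlr4 genotype effect differed between the times. The effect of cKO on the log2 scale at 4 h minus that at 0 h was -1.302 (SE 0.15, adjusted p = 0.027, limma), and it is listed because the test of this difference passed the adjusted threshold, which no other receptor did. Tlr4 coverage was 1082 and 1135 in cKO against 721 and 811 in WT at 0 h, and 100.1 and 105 against 136 and 154 at 4 h. The sign was the same in all alternatives run, from -1.39 to -1.04. The adjusted p was above 0.05 without WT 1 at 0 h (0.054), cKO 3 at 0 h (0.10), cKO 4 at 0 h (0.10), WT 1 at 4 h (0.056), cKO 3 at 4 h (0.087) or cKO 4 at 4 h (0.093), and below it without WT 2 at 0 h (0.040) or WT 2 at 4 h (0.046). When replicate number was added as a block, the value was the same and the adjusted p was 0.20, so the adjusted call was lost, and over all genes 346 adjusted interaction calls became 0. What moves with it among the pools was not tested.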

How the results depend on the processing

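Of 50 log2 fold changes (10 receptors in 5 comparisons) 24 kept their direction and side of the threshold under all alternatives. Of 865 values under alternatives 785 did so, 24 lost a call, 34 gained one and 22 reversed. Calls that reversed were those of Tlr7 over time: in WT with quantile normalization (-0.13), and in cKO on the deposited scale (-0.21), under equal summed coverage (-0.25) and with quantile normalization (-0.55). Uncalled values also reversed. On the deposited scale these were Tlr1 (0.17), Tlr7 (0.018) and Tlr13 (0.23) between genotypes at 4 h and Tlr6 over time in cKO (-0.45). Under equal summed coverage they were Tlr13 at 4 h (0.018) and Tlr6 over time in cKO (-0.49). The Tlr5 interaction reversed with quantile normalization (-0.27) and a pseudocount of 1 (-0.55). With 1 library left out, Tlr9 at 0 h ranged from -0.64 to 0.14, Tlr2 at 4 h from -0.062 to 0.17, Tlr5 at 4 h from -1.25 to 3.04, Tlr13 at 4 h from -0.43 to 0.17, and the interactions of Tlr5 from -2.14 to 2.15 and Tlr9 from -0.70 to 0.080.

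Counts of called receptors moved by more than 1.5 times as follows. At 0 h the count called higher was 0 with an adjusted p and 2 with only the 4 samples of the comparison, and the count called lower was 0 with an adjusted p, 0 on the deposited scale, 2 with quantile normalization, 0 with no filter and 0 to 3 with 1 library left out. At 4 h 1 was called higher and 1 lower on the deposited scale, and 0 to 1 higher with 1 library left out. The interaction was called positive for 0 with an adjusted p, 3 on the deposited scale, 2 under equal summed coverage, 3 with quantile normalization and 1 to 2 with 1 library left out. It was called negative for 1 with an adjusted p, and for 2 on the deposited scale, 2 under equal summed coverage and 2 with quantile normalization. Over all 16284 genes the interaction was called positive for 1216 and negative for 1441 in the main comparison. These were 2192 and 659 on the deposited scale, 1799 and 800 under equal summed coverage and 1314 and 1142 with quantile normalization. At 0 h 1041 genes were called higher and 1011 lower, 1302 and 801 on the deposited scale and 1138 and 1213 with quantile normalization. The cause was not tested.

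Replicate numbers are the same at 0 h and 4 h within a genotype, and deviations of same-numbered samples correlated at 0.02 in each genotype. Among single genes Eif2s3y was lower in cKO 3 than in cKO 4 both at 0 h (777 and 1553) and at 4 h (442 and 868), so a shared origin of same-numbered samples is neither given nor settled. With the replicate block the receptors called over time stayed at 6 higher and 3 lower in WT and 5 and 3 in cKO, and 3 interactions were negative instead of 4. The adjusted p of the Tlr4 interaction was 0.20 with the block. No paired analysis was possible for the genotype comparisons because WT and cKO share no numbers. Interaction calls over all genes with an adjusted p fell from 346 to 0 with the replicate block. Over all genes at 0 h, 775 calls with an adjusted p became 176 with only the 4 samples, and at 4 h 2104 became 236. Over all genes, calls over time went from 5653 higher and 3621 lower to 2008 and 8905 in WT under equal summed coverage, and from 5322 and 3650 to 2146 and 8585 in cKO. Those at 4 h went from 1609 higher and 1729 lower to 3374 and 715 on the deposited scale. With 2 pools a group the spread is poorly known, and depth per gene is unknown.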
